A study of Mus musculus with 14 samples.

Results

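Hyaluronan, a long sugar polymer of the extracellular matrix, was followed through 9 genes that make it, break it down, bind it at the cell surface or organise it in the matrix. They were the synthases Has1, Has2 and Has3, the hyaluronidases Hyal1 and Hyal2, the receptors Cd44 and Hmmr, the matrix proteoglycan Vcan and the secreted binding protein Tnfaip6. They were taken by symbol, and all 9 were found among the 24411 genes of the deposited count tables. Has1 was chosen by its measured laparotomy effect, which differed between hosts in these same tumour libraries, so its tumour values are given as a description with no test. RNA was sequenced from MC-38, a mouse colon cancer line, in 14 libraries. In culture, 3 libraries of cells given NET chromatin stood against 3 libraries of untreated cells; NETs, neutrophil extracellular traps, are webs of DNA and histones that neutrophils cast out. The other libraries, 2 for each of 4 kinds of host, hold MC-38 cells expressing green fluorescent protein that were sorted from lung tumours on day 30. The hosts were PAD4 knockout (KO) mice with laparotomy on days 0 and 10, PAD4 KO mice without surgery, wild-type (WT) mice with laparotomy on days 0 and 10, and WT mice without surgery. PAD4 is the enzyme that citrullinates histones during NET release. The knockout lies in the host, since the labels give the genotype of the MC-38 cells themselves as WT in every group. Nothing in the labels says that replicate libraries are separate cultures, animals or pools, so the p-values rest on a spread between samples that may be technical.

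Hyaluronan is spun out through the plasma membrane by the 3 synthases from the sugar nucleotides UDP-glucuronic acid and UDP-N-acetylglucosamine. Its size matters for its known effects: long chains hydrate and space the matrix, and fragments made by hyaluronidases can act as injury signals at CD44 and Toll-like receptors. In wounds and tumours, fibroblasts are a well-known source of hyaluronan, versican (the product of Vcan) forms large aggregates with it, and TSG-6 (the product of Tnfaip6) loads heavy chains of inter-alpha-inhibitor onto it.

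Promoter sequences are shown for 4 members whose levels the results turn on: Has1 and Tnfaip6, which were highest in KO laparotomy tumours, and Cd44 and Hyal1, the members higher with NET chromatin. Each runs from 250 bases before to 50 bases after the start given by RefSeq on GRCm38.p6 and is printed on the gene's strand. That start can differ from the end of the gene span given with each member below. Capitals mark every match, on either strand, to any of 5 short motifs: TATAAA (the TATA box), TGACTCA (the AP-1 site), GGGCGG (the GC box of SP1), ACGTG (the core of hypoxia response elements) and CCAAT.
Has1, chr17:17855139-17855438, minus strand: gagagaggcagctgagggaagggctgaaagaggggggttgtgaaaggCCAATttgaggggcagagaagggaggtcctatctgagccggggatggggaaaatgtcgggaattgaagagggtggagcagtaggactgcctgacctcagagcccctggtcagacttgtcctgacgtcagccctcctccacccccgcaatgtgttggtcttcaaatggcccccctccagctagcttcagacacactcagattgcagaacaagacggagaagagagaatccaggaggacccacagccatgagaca
Tnfaip6, chr2:52037863-52038162, plus strand: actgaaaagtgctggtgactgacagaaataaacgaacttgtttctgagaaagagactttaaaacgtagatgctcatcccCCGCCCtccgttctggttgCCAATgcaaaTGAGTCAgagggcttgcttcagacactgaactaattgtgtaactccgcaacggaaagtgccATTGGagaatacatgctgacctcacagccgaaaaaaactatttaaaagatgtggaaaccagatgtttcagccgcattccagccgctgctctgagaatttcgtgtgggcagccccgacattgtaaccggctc
Cd44, chr2:102901616-102901915, minus strand: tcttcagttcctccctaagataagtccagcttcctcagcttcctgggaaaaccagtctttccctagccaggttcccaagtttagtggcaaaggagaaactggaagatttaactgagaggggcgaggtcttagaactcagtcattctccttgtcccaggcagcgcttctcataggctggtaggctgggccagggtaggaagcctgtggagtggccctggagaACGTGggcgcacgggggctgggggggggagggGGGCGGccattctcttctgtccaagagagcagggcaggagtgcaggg
Hyal1, chr9:107576700-107576999, plus strand: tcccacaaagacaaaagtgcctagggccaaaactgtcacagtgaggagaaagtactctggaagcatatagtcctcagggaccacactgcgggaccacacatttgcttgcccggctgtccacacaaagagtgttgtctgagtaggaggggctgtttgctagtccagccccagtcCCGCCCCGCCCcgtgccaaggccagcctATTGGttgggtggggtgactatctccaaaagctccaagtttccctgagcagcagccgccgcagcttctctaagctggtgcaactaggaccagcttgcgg
The Tnfaip6 window held an AP-1 match in its reverse complement, starting 142 bases before the RefSeq start, where 5.2% of 32851 promoters of this length held that motif. It also held CCAAT in both orientations, at 152 and 81 bases before that start, and a GC box. The gene span of Tnfaip6 given below begins earlier, at 52038009. The AP-1 match lies closer to that position, and the CCAAT at 81 bases falls inside the span. The capitals in Has1 were a single CCAAT, present in 37.4% of promoters. Cd44 held ACGTG 29 bases before the start, found in 19.6% of promoters, and a GC box just after it. In Hyal1 the longest run of capitals was 2 overlapping GC boxes in reverse complement, a motif in 35.7% of promoters, and a reversed CCAAT followed them. TATAAA was in 13.6% of promoters and in none of the 4 windows. These matches describe the letters only. The table of promoters matched 7 of the 9 members, all but Has2 and Has3.

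Tumour libraries held 10.8 to 31.3 M gene counts and culture libraries 6.39 to 20.6 M. Checked against 10 markers of colon epithelium, the cells summed to 2.24 to 33.5 CPM in tumours, with Cdx2 at 0, and to 0.979 to 1.93 CPM in culture, with all 10 under 1 CPM. Tumour libraries carried high levels of host-type markers in spite of the sort for green fluorescent protein. The 10 fibroblast markers summed to 3736 to 12279 CPM in tumours and to 149 to 180 CPM in culture, with Col3a1 at a mean of 3703 CPM in tumours. Cultured MC-38 cells had reads of this list themselves, with Pdgfra highest at a mean of 92.7 CPM. Whether the marker reads in tumours came from host cells or from MC-38 cells was not tested. WT control replicate 2 stood apart, with 1042 CPM of the 10 pan-leukocyte markers and 1630 CPM of the 12 macrophage markers, where the other 7 tumour libraries held 86.3 to 199 and 130 to 572 CPM. Fewer cells of a type and less RNA per cell cannot be told apart in these bulk libraries.

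Levels below are read counts scaled to library size (CPM), corrected with TMM factors computed within the 6 culture or the 8 tumour libraries, and are listed replicate by replicate. On the scale of CPM of library totals, 6 members (Has1, Has2, Hyal2, Cd44, Vcan and Tnfaip6) were higher in every tumour library than in every culture library, where 27.4% of 14615 genes did the same. Has3 and Hmmr were lower in every tumour library, as were 19.8% of genes, and Hyal1 overlapped. For Has3 this holds only for reads counted without regard to strand: on the strand of the gene it stood at 0.218 to 0.921 CPM in tumour and 0.0806 to 0.312 CPM in culture libraries, which overlapped. The fibroblast and pan-leukocyte marker sums were also higher in every tumour library, and their part in those levels was not tested.

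**Figure D1:**
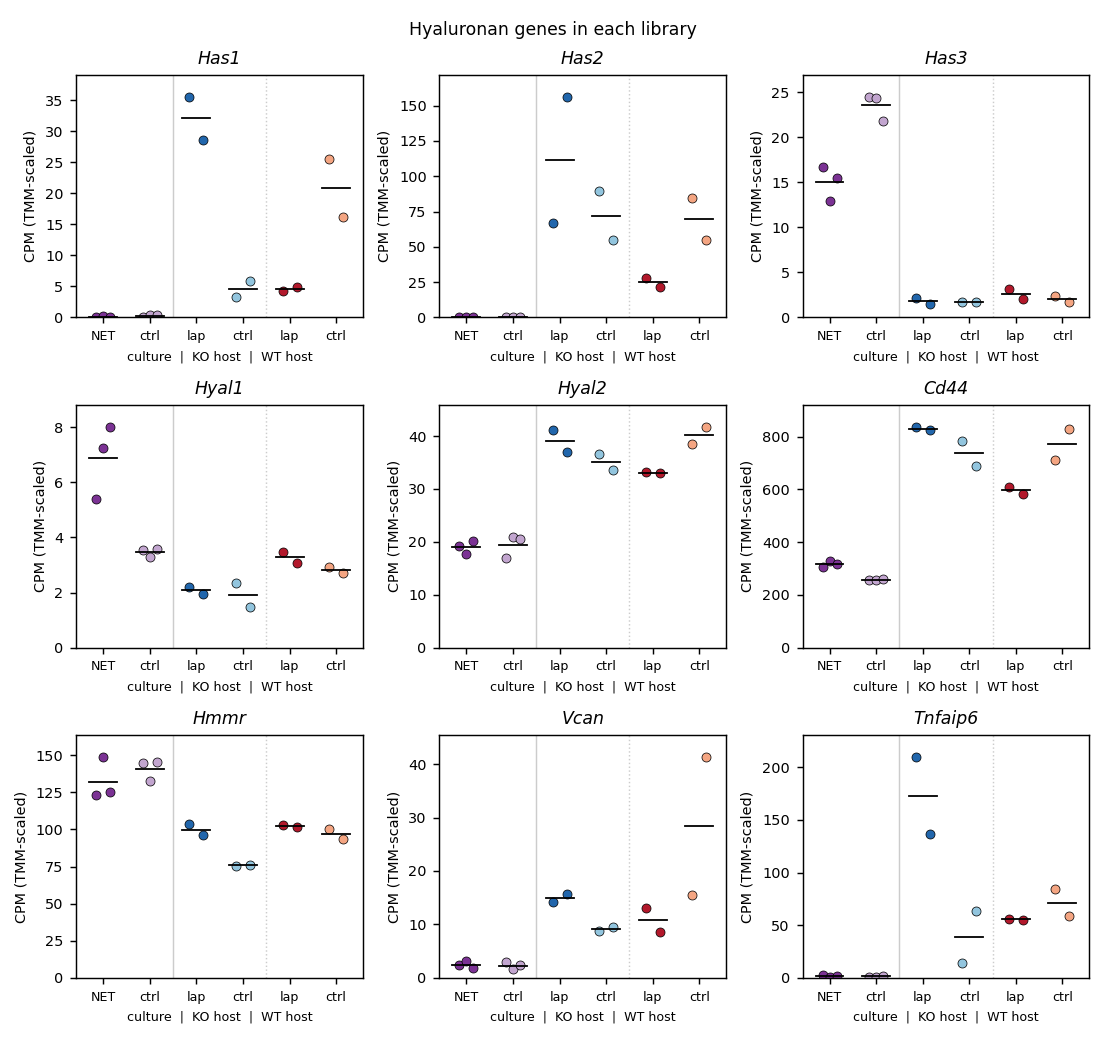
CPM of each hyaluronan gene (TMM-scaled, linear axes from 0) in each of the 14 libraries; each point is a library and each line a group mean, with cultures at the left, PAD4 KO hosts in the middle and WT hosts at the right, and laparotomy (lap) left of control (ctrl). Has1 stands at 28.7 to 35.6 CPM in KO laparotomy and 16.1 to 25.6 CPM in WT control libraries, and at 3.23 to 5.89 CPM in the other tumour libraries.

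Has1 (chromosome 17, 17843323 to 17855205, minus strand, GRCm38), the least active of the synthases, was almost silent in culture. In tumours its level differed between the groups, which is the pattern it was chosen for. In KO hosts it stood at 35.6 and 28.7 CPM with laparotomy, against 3.23 and 5.89 CPM without surgery. In WT hosts it stood at 4.23 and 4.98 CPM with laparotomy, against 25.6 and 16.1 CPM without surgery. The groups did not overlap within either host, and the order was opposite: the surgical group was the high one in KO hosts and the low one in WT hosts. The log2 fold change with laparotomy was 2.82 in KO hosts and -2.17 in WT hosts, and their difference was 4.99. Between hosts, KO over WT, it was 2.80 with laparotomy and -2.19 without surgery. The underlying counts were 530 and 425 reads in KO laparotomy and 85 and 156 in KO control libraries, and 97 and 158 in WT laparotomy and 280 and 489 in WT control libraries. In tumours 3.56% of the 2220 strand-assigned Has1 reads (exact 95% interval 2.83 to 4.42%, counting error only) lay on the strand opposite to the gene. The share was uneven, with 21 of 85 reads in KO control replicate 1, the lowest Has1 library, and 0 of 425 in KO laparotomy replicate 2. On the strand of the gene the log2 fold change with laparotomy in KO hosts was 2.94. In culture only 15 reads were assigned to Has1 in all 6 libraries, and all 15 lay on that opposite strand, so no culture read came from the strand of the gene. A total of 0 allows up to 3 reads over the 6 libraries.

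Has2 (chromosome 15, 56665627 to 56694539, minus strand), the synthase known for long chains and for its role in the developing heart, was the synthase with the most reads per length in every tumour library. It stood at 67.1 and 156 CPM in KO laparotomy and at 89.3 and 54.7 CPM in KO control libraries, which overlapped. In WT hosts it stood at 28.2 and 21.9 CPM with laparotomy, against 84.5 and 54.7 CPM without surgery. The WT laparotomy libraries were thus the lowest of the 8, and the other 3 groups shared a range. The log2 fold change with laparotomy was 0.63 ± 0.45 in KO hosts (SE, n = 2 and 2; adjusted p = 0.554, edgeR quasi-likelihood test) and -1.47 ± 0.46 in WT hosts (adjusted p = 0.181). KO over WT hosts, it was 2.16 ± 0.47 with laparotomy (adjusted p = 0.16, edgeR) and 0.06 ± 0.45 without surgery (adjusted p = 0.967). The difference between the laparotomy effects was 2.11 ± 0.64 (adjusted p = 0.165, edgeR). None of these passed the threshold of 0.05. DESeq2, run as an alternative, called 3 of them: the WT laparotomy value (-1.49, adjusted p = 0.00202), the KO over WT value with laparotomy (2.17, adjusted p = 1.13e-06) and the difference (2.13, adjusted p = 0.00159). Over the 14 alternatives these 3 values were -1.76 to -1.13, 1.41 to 2.65 and 1.35 to 2.58. Leaving out 1 library leaves 1 library in its group. Without KO laparotomy replicate 2, the highest Has2 library, the KO over WT value with laparotomy was 1.41 and the difference 1.35. In culture Has2 had 6 reads in the 3 NET libraries and 13 in the 3 control libraries, too few to be tested. Its counts leave out some reads where an opposite-strand RNA gene, Has2os, covers 4596 bases of the locus: 12106 tumour reads were assigned on the strand of Has2, and 11039 without regard to strand.

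The balance of the inducible synthases also shifted. Reads per kilobase of exon, on the strand of the gene, were 2.26 and 6.40 times as high for Has2 as for Has1 in KO laparotomy libraries and 43.2 and 10.9 times as high in KO control libraries. In WT hosts the ratio was 8.34 and 5.48 with laparotomy and 3.94 and 4.13 without surgery. Has2 exceeded Has1 in all 8 libraries, by the widest margin in KO control replicate 1. The ratio holds Has1 and is therefore a description too.

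Has3 (chromosome 8, 106870242 to 106884566, plus strand), the synthase known for shorter chains, had the most reads of the synthases in cultured cells, at 16.8, 13.0 and 15.5 CPM with NET chromatin against 24.5, 24.4 and 21.9 CPM in controls. All 3 NET libraries were below all 3 controls, and the log2 fold change was -0.63 ± 0.11 (SE, n = 3 each; adjusted p = 1.74e-04, edgeR). The strand of the reads does not match Has3, however. Of the 1345 culture reads with a strand, 1335 (99.3%, exact 95% interval 98.6 to 99.6%) lay opposite to the gene. Chtf8, a gene transcribed the other way, overlaps the last 704 bases of Has3 (chromosome 8, 106883863 to 106884566). The count without regard to strand was also 1345, so reads were not left out there as they were for Has2 at Has2os. The place of the opposite-strand reads within the locus was not tested. Only 1 to 4 reads per culture library came from the strand of Has3, and on that strand alone the gene had too few reads to be tested. The other members but Has1 and Has2 had 0.0405 to 3.83% of their culture reads on the opposite strand. The fall with NET chromatin is therefore a fall of opposite-strand reads over the Has3 locus, not a measured fall of Has3 transcript.

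**Figure D2:**
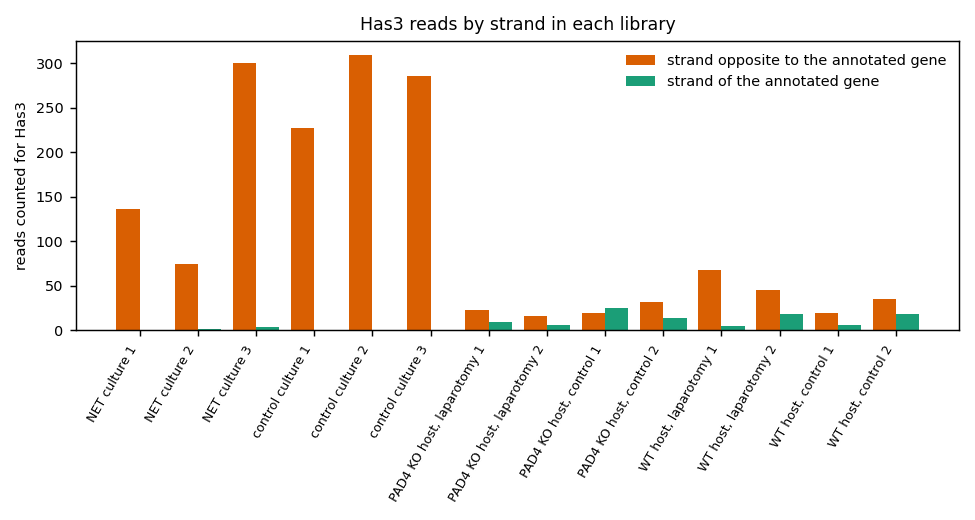
Number of reads counted over Has3 in each of the 14 libraries, on the strand opposite to the annotated gene (orange) and on the strand of the gene (green). Opposite-strand reads number 75 to 310 in culture libraries, against 1 to 4 on the strand of the gene; in tumours they number 16 to 68, against 5 to 25.

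In tumours Has3 was low, at 2.22 and 1.48 CPM in KO laparotomy, 1.67 and 1.74 CPM in KO control, 3.18 and 2.02 CPM in WT laparotomy and 2.38 and 1.75 CPM in WT control libraries. The laparotomy groups overlapped their controls in both hosts. There 71.8% of 362 reads were on the opposite strand. The log2 fold changes with laparotomy were 0.12 ± 0.54 in KO hosts and 0.34 ± 0.53 in WT hosts (SE; adjusted p = 0.943 and 0.786, edgeR), and both turned negative on the strand of the gene alone (-0.455 and -0.52). No direction can be read for Has3 in tumours. Counted on the strand of their own gene, synthase reads were close to absent in cultured MC-38 cells: 0 reads for Has1, 19 for Has2 and 10 for Has3 over the 6 libraries.

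Among the breakdown enzymes, Hyal1 (chromosome 9, 107576927 to 107581710), the lysosomal hyaluronidase, was the member with the highest fold change in NET culture. It stood at 5.39, 7.25 and 8.01 CPM with NET chromatin, against 3.54, 3.30 and 3.58 CPM in controls, and the groups did not overlap. Hyal1 was higher by 1.03 ± 0.19 on the log2 scale (SE, n = 3 each; adjusted p = 1.90e-04, edgeR). On the strand of the gene it was 1.04, which leaves out the antisense Gm16343, but Naa80 and Hyal3 overlap Hyal1 on its own strand and share 2824 and 893 bases of the locus with it. In tumours Hyal1 was at 2.22 and 1.96 CPM in KO laparotomy and 2.36 and 1.47 CPM in KO control libraries, and at 3.49 and 3.06 CPM in WT laparotomy and 2.92 and 2.70 CPM in WT control libraries. Both KO groups lay below both WT groups. The KO over WT value was -0.65 ± 0.47 with laparotomy and -0.55 ± 0.47 without surgery, and neither passed the test (adjusted p = 0.584 and 0.602, edgeR).

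Hyal2 (chromosome 9, 107567945 to 107572779), the membrane-anchored hyaluronidase that cuts long chains at the cell surface, showed no difference with NET chromatin beyond its spread. It stood at 19.2, 17.7 and 20.1 CPM in NET and 17.0, 21.0 and 20.5 CPM in control cultures, a log2 fold change of -0.03 ± 0.11 (SE, n = 3 each; adjusted p = 0.842, edgeR). In tumours it was higher, at 41.2 and 37.0 CPM in KO laparotomy and 36.5 and 33.6 CPM in KO control libraries, and at 33.3 and 33.0 CPM in WT laparotomy and 38.6 and 41.8 CPM in WT control libraries. The surgical libraries were the upper ones in KO hosts and the lower ones in WT hosts, though the groups lay close. On the log2 scale laparotomy gave 0.16 ± 0.13 in KO hosts (adjusted p = 0.603, edgeR) and -0.28 ± 0.13 in WT hosts (adjusted p = 0.285), and the difference was 0.44 ± 0.18 (adjusted p = 0.238).

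Cd44 (chromosome 2, 102811141 to 102901665, minus strand), the main cell-surface receptor of hyaluronan, was the member with the most reads per kilobase of exon in every group. With NET chromatin it stood at 306, 329 and 316 CPM, against 256, 256 and 261 CPM in controls. The groups did not overlap, and the log2 fold change was 0.30 ± 0.06 (SE, n = 3 each; adjusted p = 4.47e-04, edgeR). With library totals in place of TMM it was 0.14 (adjusted p = 0.0401, edgeR). In tumours Cd44 reached 837 and 824 CPM in KO laparotomy, against 784 and 690 CPM in KO control libraries, and 610 and 584 CPM in WT laparotomy, against 710 and 831 CPM in WT control libraries. The WT laparotomy libraries were the lowest of the 8. Laparotomy gave a log2 fold change of 0.17 ± 0.12 in KO hosts (adjusted p = 0.522, edgeR) and -0.37 ± 0.12 in WT hosts (adjusted p = 0.172). KO over WT with laparotomy it was 0.48 ± 0.12 (adjusted p = 0.164, edgeR), and the difference between the laparotomy effects was 0.54 ± 0.16 (adjusted p = 0.144). DESeq2 called 3 of these, the WT laparotomy value (adjusted p = 0.0238), the KO over WT value with laparotomy (0.00376) and the difference (0.0211). Over the 14 alternatives these 3 log2 fold changes were -0.475 to -0.248, 0.431 to 0.506 and 0.421 to 0.637. Without WT control replicate 2 the WT laparotomy value was -0.25.

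Hmmr (chromosome 11, 40701395 to 40733422, minus strand), whose product RHAMM binds hyaluronan and also sits on the mitotic spindle, ran at 123, 149 and 125 CPM in NET and 145, 132 and 145 CPM in control cultures. The groups overlapped, with a log2 fold change of -0.10 ± 0.08 (SE, n = 3 each; adjusted p = 0.293, edgeR). With library totals the value was -0.26 and passed (adjusted p = 0.00781), where the median over all genes was -0.16. In tumours Hmmr was 104 and 96.1 CPM in KO laparotomy, against 75.6 and 76.2 CPM in KO control libraries. It was 103 and 102 CPM in WT laparotomy and 101 and 93.8 CPM in WT control libraries. The KO control group was alone in being low. With laparotomy Hmmr was higher in KO hosts by a log2 fold change of 0.40 ± 0.10 (adjusted p = 0.126, edgeR; 0.0312 in DESeq2, and 0.0312 to 0.329 over the 14 alternatives), which did not pass in edgeR, and in WT hosts the value was 0.08 ± 0.10 (adjusted p = 0.746). KO over WT without surgery it was -0.36 ± 0.10 (adjusted p = 0.182, edgeR). The 12 mitosis genes summed to 2464 and 2810 CPM in KO laparotomy and 2607 and 2655 CPM in KO control libraries, and did not separate these groups.

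Vcan (chromosome 13, 89655312 to 89742509, minus strand) was low in culture, at 2.33, 3.20 and 1.89 CPM with NET chromatin and 2.89, 1.65 and 2.36 CPM in controls, a log2 fold change of 0.01 ± 0.28 (SE, n = 3 each; adjusted p = 0.979, edgeR). In tumours it was 14.1 and 15.8 CPM in KO laparotomy, against 8.77 and 9.47 CPM in KO control libraries. It was 13.1 and 8.63 CPM in WT laparotomy, against 15.4 and 41.3 CPM in WT control libraries. The value of 41.3 CPM belongs to WT control replicate 2, the library rich in leukocyte markers. Laparotomy gave Vcan a log2 fold change of 0.71 ± 0.42 in KO hosts (adjusted p = 0.469, edgeR) and -1.40 ± 0.42 in WT hosts (adjusted p = 0.166; 0.0191 in DESeq2). Without WT control replicate 2 the WT value was -0.51 (adjusted p = 0.666), and without WT control replicate 1 it was -1.93 (adjusted p = 0.0168, edgeR). The difference between the effects was 2.11 ± 0.60 (adjusted p = 0.13, edgeR; 0.0125 in DESeq2), and 1.22 without WT control replicate 2 (adjusted p = 0.232). KO over WT without surgery, Vcan was -1.65 ± 0.43 (adjusted p = 0.162, edgeR; 0.00656 in DESeq2), and -0.76 without WT control replicate 2 (adjusted p = 0.461). Over the 14 alternatives the adjusted p was 0.0168 to 0.71 for WT laparotomy, 0.0125 to 0.415 for the difference and 0.00656 to 0.461 for KO over WT without surgery. The WT control replicates thus set the size of the Vcan values in WT hosts.

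Tnfaip6 (chromosome 2, 52038009 to 52056686, plus strand) showed little expression in culture, at 2.69, 0.843 and 1.89 CPM with NET chromatin and 1.18, 1.10 and 1.98 CPM in controls. The groups overlapped, with a log2 fold change of 0.39 ± 0.33 (SE, n = 3 each; adjusted p = 0.345, edgeR). In tumours it reached 210 and 136 CPM in KO laparotomy, against 14.5 and 63.2 CPM in KO control libraries. It stood at 56.1 and 55.4 CPM in WT laparotomy, against 84.0 and 58.7 CPM in WT control libraries. Both KO laparotomy libraries were above the 6 others, and the KO control libraries differed widely from each other. For Tnfaip6 the laparotomy effect on the log2 scale was 2.16 ± 0.66 in KO hosts (adjusted p = 0.212, edgeR) and -0.35 ± 0.64 in WT hosts (adjusted p = 0.824), and their difference was 2.51 ± 0.91 (adjusted p = 0.222). Without KO control replicate 2 the KO value was 3.58 (adjusted p = 0.0263, edgeR) and the difference 3.92 (adjusted p = 0.0206); without KO control replicate 1 they were 1.46 (0.267) and 1.80 (0.169). The adjusted p reached 0.45 and 0.58 among the 14 alternatives. KO over WT with laparotomy, Tnfaip6 was 1.64 ± 0.65 (adjusted p = 0.366, edgeR).

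Read as a group in culture, 3 of the 7 members tested passed the threshold with NET chromatin: Hyal1 and Cd44 were higher, and Has3 was lower through opposite-strand reads. In that comparison 54.1% of 11753 genes passed, 26.3% higher and 27.8% lower, so the members' share is no higher than that of all genes. The same 3 members had no overlap between NET and control libraries, 2 higher and 1 lower, where 60.1% of genes had none (29.5% higher, 30.6% lower). With library totals 1640 genes were higher and 4777 lower, against 3093 and 3270 with TMM, the median of all genes being -0.16. The members' median log2 fold change was 0.01, against 0.00 over all genes tested. The 10 pan-leukocyte markers summed to 19.2, 22.1 and 19.7 CPM with NET chromatin and to 7.29, 7.22 and 8.07 CPM in controls, and the 12 macrophage markers to 155, 178 and 161 CPM with NET chromatin and to 100, 110 and 91.0 CPM in controls, while C1qa and C1qc were at 0 in all 6. The highest of the macrophage markers in culture was Cd68, at a mean of 112.8 CPM over the 6 libraries. The 12 neutrophil markers summed to 21.3, 23.59 and 22.14 CPM with NET chromatin and to 9.538, 9.262 and 9.363 CPM in controls. Of these, Mmp9 was highest, at a mean of 10.63 CPM, and Retnlg and Ngp were at 0 in all 6. Among the markers tested in edgeR, 6 of 7 pan-leukocyte, 5 of 6 macrophage and 2 of 2 neutrophil markers were higher with NET chromatin, and none was lower. Their largest log2 fold changes were 5.79, 7.25 and 7.33, far above those of Hyal1 and Cd44. The part of all these markers in the Hyal1 and Cd44 values was not tested.

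**Figure D3:**
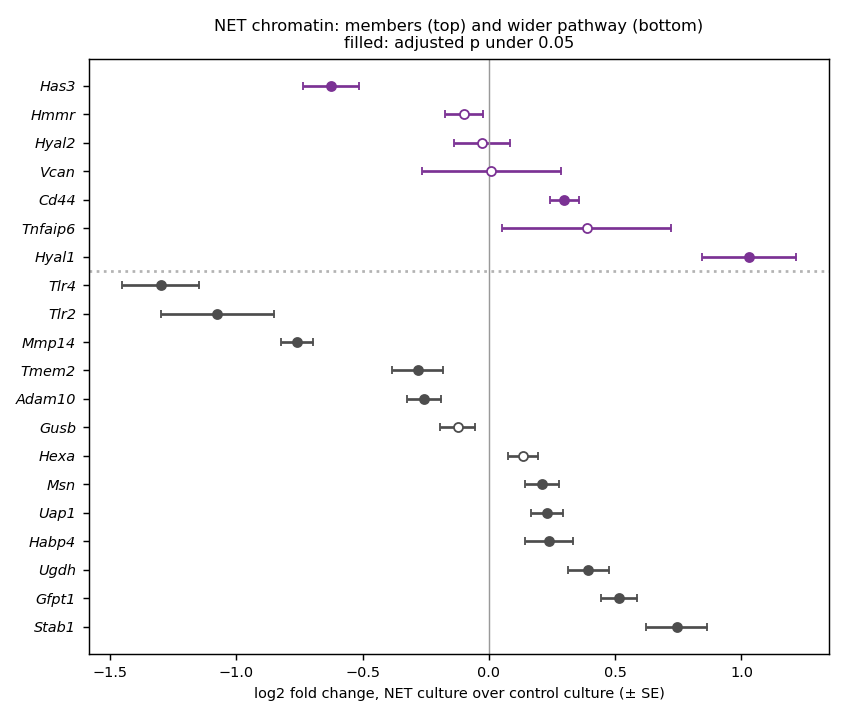
Log2 fold change (± SE) of NET over control culture for the 7 tested hyaluronan genes (top) and the named genes of the wider pathway (bottom), from 3 libraries each; filled points have an edgeR adjusted p under 0.05. Hyal1 (1.03) and Cd44 (0.30) lie to the right of 0, and Tlr4 (-1.30) and Tlr2 (-1.08) lie farthest to the left.

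Genes that feed and read hyaluronan were also looked at in 5 lists, 47 of whose 48 symbols were in the tables. Of the 8 enzymes that build the sugar nucleotide precursors, 7 were tested in culture, 5 were higher with NET chromatin and none was lower. With library totals 2 were higher. Over all 11753 genes tested in culture, 26.3% were higher and 27.8% lower. With library totals 1640 genes were higher and 4777 lower. Gfpt1, the entry enzyme of the hexosamine pathway, stood at 226, 276 and 251 CPM with NET chromatin, against 175, 182 and 169 CPM in controls (log2 fold change 0.52 ± 0.07, adjusted p = 1.41e-05, edgeR). Ugdh, which makes UDP-glucuronic acid, stood at 101, 127 and 105 CPM, against 82.6, 82.2 and 86.6 CPM in controls (0.39 ± 0.08, adjusted p = 6.22e-04, edgeR). The groups did not overlap for either enzyme. Uap1, which makes UDP-N-acetylglucosamine, was higher by 0.23 ± 0.06 (adjusted p = 0.0059, edgeR) and did not pass with library totals (0.07, adjusted p = 0.314). The list's median log2 fold change was 0.28, against 0.00 over all genes.

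The other hyaluronan receptors moved both ways in culture: of 5 tested, 1 was higher and 2 were lower. For this list and those below, the shares over all genes were 26.3% higher and 27.8% lower. Nothing particular to the lists is read from their counts. Tlr4, a Toll-like receptor for endotoxin that also responds to hyaluronan fragments, fell to 6.37, 5.22 and 6.58 CPM with NET chromatin, against 13.6, 14.0 and 18.2 CPM in controls (log2 fold change -1.30 ± 0.15, adjusted p = 2.25e-06, edgeR). Tlr2 fell to 1.96, 1.52 and 1.68 CPM, against 3.97, 3.53 and 3.50 CPM in controls (-1.08 ± 0.22, adjusted p = 6.38e-04, edgeR). Stab1, a scavenger receptor of macrophages and sinusoidal endothelium, rose to 16.8, 15.7 and 15.8 CPM, against 8.47, 9.97 and 10.1 CPM in controls (0.74 ± 0.12, adjusted p = 6.88e-05, edgeR). Of the proteins that anchor or cleave CD44, 6 were tested, 2 were higher and 2 were lower. The sheddase Mmp14 fell to 96.5, 97.9 and 92.6 CPM with NET chromatin, against 159, 164 and 161 CPM in controls (-0.76 ± 0.06, adjusted p = 7.89e-08, edgeR). The sheddase Adam10 fell by 0.26 on the log2 scale (adjusted p = 0.00472, edgeR), and did not pass without NET culture replicate 3 (-0.21, adjusted p = 0.0568). Moesin (Msn), which ties CD44 to actin, rose by 0.21 (adjusted p = 0.0132, edgeR) and did not pass with library totals (0.05, adjusted p = 0.49) or without control culture replicate 3 (0.18, adjusted p = 0.0713). Among the other breakdown genes 1 of 4 tested was lower and none higher. That gene was Tmem2, which encodes a cell-surface hyaluronidase, at -0.28 ± 0.10 (adjusted p = 0.0255, edgeR), a call lost when any 1 of 5 of the 6 libraries was left out. Hexa (0.13 ± 0.06, adjusted p = 0.0643) and Gusb (-0.12 ± 0.07, adjusted p = 0.142), lysosomal enzymes that trim hyaluronan fragments, did not pass in edgeR. Of 16 other hyaluronan-binding matrix genes only Habp4 had enough reads to be tested, at 0.24 ± 0.10 (adjusted p = 0.0445, edgeR; 0.08 with library totals, adjusted p = 0.524). DESeq2 did not call Habp4 (adjusted p = 0.0774), and leaving out any 1 of 4 libraries also ended the call (adjusted p = 0.106 to 0.186, edgeR).

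In tumours none of the 8 members tested passed the threshold of the edgeR quasi-likelihood test in any of the 5 comparisons. These comparisons share libraries with one another, so their values are not independent. Of 14615 genes it called 0.520% for laparotomy in KO hosts, 0.0547% for laparotomy in WT hosts, 0.677% for the difference, and 0.0205% and 0.116% for KO over WT with laparotomy and without surgery. At an unadjusted p under 0.05 there were 2 of the 8 members for laparotomy in KO hosts, where 15.7% of all genes had such a p, and 3 for laparotomy in WT hosts, against 18.8% of all genes. There were 5 for the difference, against 19.2% of all genes, 3 for KO over WT with laparotomy, against 13.4%, and 2 for KO over WT without surgery, against 16.3%. DESeq2 called 1 member for laparotomy in KO hosts and 5.51% of all genes with an adjusted p, and 3 members and 8.42% for laparotomy in WT hosts. For the difference it called 3 members and 8.24% of genes, for KO over WT with laparotomy 2 and 4.21%, and for KO over WT without surgery 1 and 5.58%. With 8 members these shares rest on a few genes each, and nothing particular to the members is read from them. The median log2 fold change of the 8 was 0.28 in KO hosts and -0.32 in WT hosts, against -0.01 over all genes in each. All 8 values were above 0 in KO hosts and 3 were above 0 in WT hosts. In KO hosts those of Has3 (0.12 ± 0.54) and Hyal1 (0.125 ± 0.475) were smaller than their SE. Has2, Has3 and Hyal1 turned negative there when 1 library was left out, and Has3 did so on the strand of the gene. The share of all genes above 0 was not counted, so no common direction of the members is read from these counts.

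**Figure D4:**
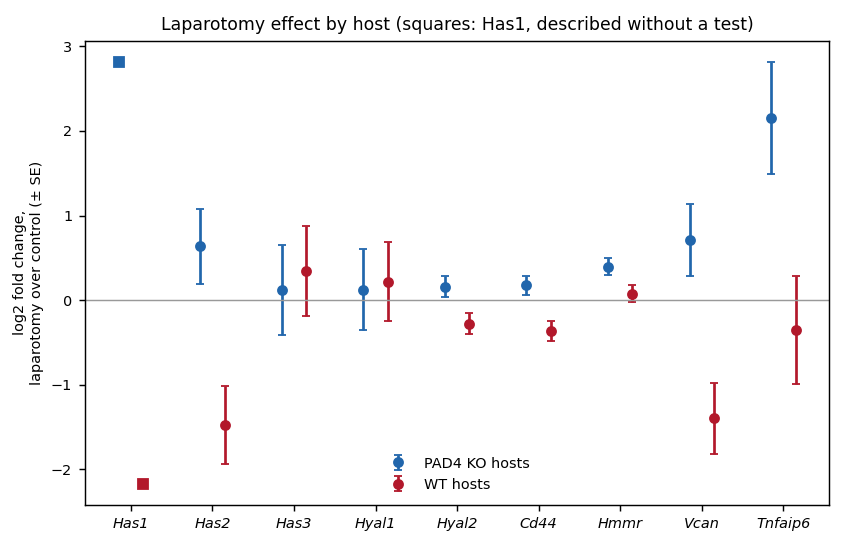
Log2 fold change of laparotomy over control in PAD4 KO hosts (blue, left of each pair) and WT hosts (red), from 2 libraries a group; bars are ± SE, and squares mark Has1, which was chosen for this contrast and has no test. Has1 reaches 2.82 in KO hosts and -2.17 in WT hosts; Tnfaip6 reaches 2.16 in KO hosts and Has2 -1.47 in WT hosts.

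Without regard to the test, 6 of the 9 members had both laparotomy libraries above both controls in KO hosts, where 42.1% of genes did not overlap (21.6% higher, 20.5% lower). In WT hosts 6 had both below and 2 both above, where 57.3% of genes did not overlap (28.1% lower, 29.2% higher). In 5 members (Has1, Hyal2, Cd44, Vcan and Tnfaip6) the libraries were apart in both hosts and in opposite directions, higher with laparotomy in KO and lower in WT hosts. Over all genes tested 7.21% did so. Has1 was picked for that pattern, and the others belong to the same list, so the count describes the members only. Has2 had the same order in WT hosts and overlapped in KO hosts. Hmmr and Hyal1 had both WT laparotomy libraries above their controls.

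The levels of several members followed host-type markers across the 8 tumour libraries, described here as Pearson correlations of log2 values over libraries that share depth, sort and scaling. Has2 and the summed fibroblast markers had r = 0.918, with the WT laparotomy libraries lowest on both (5118 and 3736 CPM of markers) and KO laparotomy replicate 2 highest on both (12279 CPM). For Has1 and the same sum r was 0.315. KO control replicate 1 had 9988 CPM of fibroblast markers and the lowest Has1 of the 8 libraries, at 3.23 CPM. Vcan had r = 0.856 with the macrophage markers and 0.808 with the pan-leukocyte markers, and WT control replicate 2 was the top library on each. Hyal2 and Cd44 had r = 0.825 and 0.706 with the macrophage markers. They had r = -0.749 and -0.744 with the 12 mitosis genes, and 0.312 and 0.689 with the fibroblast markers. For Cd44 the macrophage value was thus not the largest in size. The macrophage markers summed to 572 and 385 CPM in KO laparotomy and 160 and 367 CPM in KO control libraries. In WT hosts they summed to 142 and 130 CPM with laparotomy and 427 and 1630 CPM without surgery. The macrophage sum has the same order of groups as the 5 members above, higher with laparotomy in KO hosts and lower in WT hosts. Tnfaip6 had r = 0.432 with it and Has1 0.691. That order was not particular to macrophage markers. The 10 colon epithelium markers shared it at low sums, 15.1 and 19.4 CPM in KO laparotomy against 2.24 and 10.1 CPM in KO control libraries. In WT hosts they summed to 5.06 and 3.34 CPM with laparotomy, against 8.59 and 33.5 CPM without surgery. Other leukocyte lists did not share that order in KO hosts. There the pan-leukocyte markers summed to 155.5 and 105.6 CPM with laparotomy and 160 and 199.1 CPM without surgery. The 12 neutrophil markers summed to 236.5 and 149.8 CPM in KO laparotomy and 419.6 and 345.7 CPM in KO control libraries. In WT hosts the neutrophil sums overlapped, at 186.3 and 147.2 CPM with laparotomy and 165.6 and 828.8 CPM without surgery. Markers of lung epithelium and endothelium were also lower with laparotomy in WT hosts. The 12 lung epithelium markers summed to 102 and 93.6 CPM in KO laparotomy and 44.2 and 425 CPM in KO control libraries, and to 16.3 and 25.6 CPM in WT laparotomy and 143 and 804 CPM in WT control libraries. The 10 endothelial markers summed to 188 and 169 CPM in KO laparotomy and 121 and 383 CPM in KO control libraries, and to 95.8 and 91.0 CPM in WT laparotomy and 209 and 620 CPM in WT control libraries. Control replicate 2 was the highest library of its host on both sums, and the KO groups overlapped. Over the 9 members r with these sums was highest for Vcan, at 0.61 with lung epithelium and 0.681 with endothelium. The part of host cells, if any, in the members' levels was not tested.

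**Figure D5:**
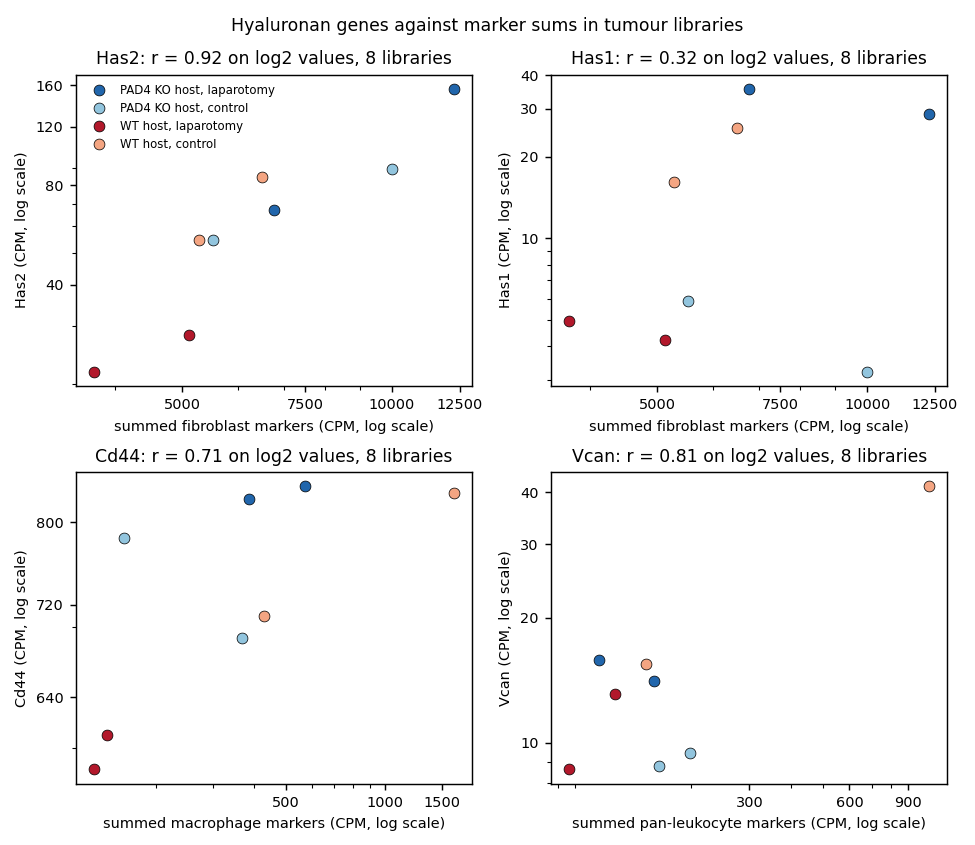
Levels of Has2, Has1, Cd44 and Vcan (CPM, log axes) against the summed level of a marker list (CPM, log axes) in the 8 tumour libraries, coloured by group. Has2 climbs with the fibroblast sum (r = 0.92), Has1 does so less closely (r = 0.32), and the top right Vcan point is WT control replicate 2.

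The same order across the 8 tumour libraries was sought for Has1 among the other 14614 genes tested. The genes with the highest Pearson correlation of log2 CPM (8 libraries, a prior count of 2) were Epn1 (r = 0.988, Spearman rho = 0.976), Atp2b4 (0.978, 0.905), Hivep3 (0.975, 0.952), Ost4 (0.974, 0.929) and Pgs1 (0.973, 1). Epn1, an endocytic adaptor, moved over a much narrower range than Has1, at 63.7 and 59.3 CPM in KO laparotomy, 47.1 and 50.1 CPM in KO control, 47.2 and 49.1 CPM in WT laparotomy and 59.3 and 54.8 CPM in WT control libraries. These 5 are the top of 14614 genes, ranked on the same values that Has1 was chosen for. Their r values are therefore a description only. None of the other 8 members was among these 5.

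Beyond the members, none of the wider pathway genes passed in the laparotomy comparisons or in their difference (edgeR quasi-likelihood test). Other settings called some of them, as given beside each. The gene of each list with the smallest p gives the range. In KO hosts these were Ugp2 at 0.28 ± 0.11 (adjusted p = 0.268), Hyal3 at -2.21 ± 0.90 (0.287), Layn at -0.58 ± 0.29 (0.376), Itih1 at 4.93 ± 1.23 (0.122) and Ezr at -0.54 ± 0.19 (0.221). Itih1, a heavy chain that TSG-6 transfers to hyaluronan, rested on few reads, 22 in the KO laparotomy and 1 in the KO control libraries. In WT hosts they were Ugdh at 0.29 ± 0.14 (adjusted p = 0.309), Tmem2 at -0.64 ± 0.16 (0.138), Tlr2 at -3.29 ± 0.82 (0.142), Itih5 at -4.96 ± 1.61 (0.182) and Adam17 at -0.33 ± 0.11 (0.18). Tlr2 was at 2.83 and 1.95 CPM in WT laparotomy, against 7.67 and 38.7 CPM in WT control libraries, the last again in replicate 2. Without WT control replicate 2 the Tlr2 value was -1.68 (adjusted p = 0.433, edgeR), Tmem2 was -0.39 (0.457) and Itih5 -3.11 (0.671). DESeq2 called Tlr2 and Tmem2 in WT hosts (adjusted p = 1.52e-04 and 0.0103), as did edgeR without WT control replicate 1 (0.0178 and 0.0277). For the difference the values with the smallest p were Tlr2 at 4.38 ± 1.12 (adjusted p = 0.114), Itih1 at 6.03 ± 1.54 (0.109), Hexa at 0.67 ± 0.20 (0.144), Uap1 at 0.50 ± 0.21 (0.249) and Adam17 at 0.34 ± 0.15 (0.281). DESeq2 called Tlr2 and Hexa in the difference (adjusted p = 3.84e-04 and 0.0424). Tlr2 there was 5.09 without WT control replicate 1 (adjusted p = 0.0226, edgeR) and 2.78 without replicate 2 (0.179), and Uap1 was 0.28 without WT control replicate 1 (0.47). In KO hosts Hyal3 was -1.16 without KO control replicate 2 (adjusted p = 0.605, edgeR), and Layn was -0.23 to -0.88 with 1 library left out.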

How the data were processed

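RNA from 6 culture and 8 tumour libraries of MC-38 cells was read as deposited gene counts. Per the submitters' processing notes, the authors used Trimmomatic, STAR and the mouse build mm10; options, library kit, annotation and tool versions were not given in the sources used here. The authors' unstranded counts of 24411 genes were used; in the strand-specific columns 1.09 to 1.20% of reads lay on the minor strand. The 4 summary lines (unmapped 4.00 to 11.5%, multimapping 6.14 to 9.25%, no feature 12.1 to 24.0%, ambiguous 1.11 to 1.51% of reads) were left out. There are no molecular identifiers, so intervals cover counting error only. No pair of replicates agreed within sampling noise (chi-square per gene 2.84 to 50.4).

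The quasi-likelihood test of edgeR 4.0.16 (R 4.3.3; filterByExpr, TMM, robust glmQLFit, glmQLFTest) was applied to the counts, with Benjamini-Hochberg adjustment over all genes tested and a threshold of 0.05. The culture fit had 6 libraries and 11753 genes, the tumour fit 8 libraries in 4 groups and 14615 genes, so that 1 estimate of the spread served all groups of 2; each fit had 4 residual degrees of freedom. Standard errors came from the quasi-likelihood F statistic. Common biological coefficients of variation were 0.0633 (culture) and 0.278 (tumours). The tests were run on simulated counts first. Reads per kilobase used exon lengths of the GRCm38 annotation. Alternatives were RLE size factors, library totals, no filter, DESeq2 1.42.0, the larger strand-specific column, the replicate number as a block and leaving out each library. Leaving out a tumour library leaves 1 in its group, so an adjusted p can rise there though the fold change stays. Of the wider pathway, the 3 genes with the smallest p of each list in culture and the 1 with the smallest p in each laparotomy comparison and in the difference are named, and for Has1 the 5 most correlated genes. Members, lists and tests were chosen with earlier results of these data known.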

Additional observations from a re-analysis of the deposited data

Results flagged for a closer look

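Has1 had its laparotomy libraries apart from the controls in both hosts and in opposite directions, as had Hyal2, Cd44, Vcan and Tnfaip6. For Has1 both KO laparotomy libraries lay above both KO controls and both WT laparotomy libraries below both WT controls, and the effect in KO hosts exceeded that in WT hosts by 4.99 on the log2 scale. This difference was not tested, because Has1 was chosen for it. For the other 4 genes the difference was tested and did not pass in edgeR's quasi-likelihood test (adjusted p = 0.13 to 0.238), while DESeq2 called it for Cd44 and Vcan (adjusted p = 0.0211 and 0.0125).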

How the results depend on the processing

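With laparotomy in KO hosts 76 genes were called in edgeR, in WT hosts 8, KO over WT with laparotomy 3, without surgery 17, and for the difference 99. In the same order DESeq2 called 789, 1207, 567, 784 and 1158 genes, and 1, 3, 2, 1 and 3 members in place of 0. Without the filter on low counts the genes numbered 278, 166, 152, 196 and 399. With RLE size factors WT laparotomy had 13, and with library totals KO over WT with laparotomy had 2. With library totals WT laparotomy had 12.

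The replicate number as a block called 59 genes for KO laparotomy, 0 for WT laparotomy, 1 and 0 for KO over WT with laparotomy and without surgery, and 56 for the difference. In culture it called 6572 genes against 6363, with 3 members in each. The deviations of same-numbered libraries from their group means had r of 0.09, 0.094 and -0.026 in culture. In tumours, where groups of 2 give 1 value per pair of groups, r was -0.122 to 0.357, the highest for KO control with WT control, so a pairing of those libraries is not settled. The labels tie no number to an animal, batch or day, and the numbers were not read as pairs. With the KO numbers crossed, an alternative chosen after seeing the data, KO laparotomy had 113 genes and 0 members.

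Leaving out 1 library gave 0 to 202 genes for KO laparotomy, 0 to 512 for WT laparotomy, 0 to 121 and 0 to 218 for KO over WT with laparotomy and without surgery, and 0 to 344 for the difference. In culture it gave 5006 to 6311 genes and 3 to 4 members. It gave 0 to 1 members in each tumour comparison but KO over WT with laparotomy, which had 0.

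Signs turned for values near 0. In culture they were Vcan at -0.14 with library totals, -0.03 on the larger strand-specific column and -0.19 to 0.26 with 1 library left out, Hyal2 at -0.11 to 0.024 with 1 left out, and Hexa at -0.024 with library totals. On the larger strand-specific column Has3 was -0.455 with laparotomy in KO hosts, -0.52 in WT hosts, 0.43 and 0.37 for KO over WT with laparotomy and without surgery, and 0.067 for the difference. With 1 library left out, laparotomy in KO hosts gave Has2 -0.12 to 1.11, Has3 -0.21 to 0.36 and Hyal1 -0.18 to 0.51, and in WT hosts gave Has3 -0.011 to 0.64. KO over WT gave Hmmr -0.088 to 0.006 with laparotomy, and Has2 -0.34 to 0.41 and Cd44 -0.16 to 0.052 without surgery. The difference gave Has3 -0.55 to 0.14 and Hyal1 -0.40 to 0.28. The cause of these changes was not tested. At this depth Has1 and Has2 had too few culture reads to be tested.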

Other observations

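Gfpt2, a second entry enzyme of the hexosamine pathway, and Ptx3, a secreted protein that binds TSG-6 in the hyaluronan matrix, were looked at after their values were seen. Ptx3 had 1 read in the 6 culture libraries together, and Gfpt2 was low there, at 0.306 to 0.674 CPM in NET and 0.322 to 0.471 CPM in control libraries. In tumours Gfpt2 stood at 90.3 and 62.1 CPM in KO laparotomy, against 5.13 and 79.7 CPM in KO control libraries, and at 34.8 and 25.1 CPM in WT laparotomy, against 91.2 and 65.2 CPM in WT control libraries. Ptx3 stood at 9.14 and 8.77 CPM in KO laparotomy, against 0.342 and 37.6 CPM in KO control libraries, and at 6.01 and 3.37 CPM in WT laparotomy, against 5.66 and 1.81 CPM in WT control libraries. KO control replicate 1 was thus the lowest of the 8 tumour libraries for Gfpt2, Ptx3, Tnfaip6 and Has1. None of the Gfpt2 or Ptx3 comparisons passed in edgeR's quasi-likelihood test; the smallest adjusted p of Gfpt2 was 0.46, for the difference between the laparotomy effects.

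Lyve1, the hyaluronan receptor of lymphatic endothelium and of some macrophages, had no read in any culture library. In tumours it was at 6.05 and 7.21 CPM in KO laparotomy and 4.56 and 26.0 CPM in KO control libraries, and at 0.697 and 1.42 CPM in WT laparotomy and 9.87 and 72.7 CPM in WT control libraries. Its log2 fold change with laparotomy in WT hosts was -5.26 ± 1.33 (adjusted p = 0.154, edgeR). Lyve1 was also chosen after its values were seen.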
